A study of Mus musculus with 18 samples.

Results

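The regions described here were open in both myoblast groups of a mouse skeletal muscle study and were then listed in 1 myocyte group and not in the other. They were selected on the presence or absence of deposited peaks, by merging the peaks of all 4 deposited peak lists on chromosomes 1 to 19 wherever they overlapped by at least 1 bp. A merged region was kept if it held a peak of MyoD-null myoblasts, a peak of wild-type myoblasts and peaks of exactly 1 of the 2 myocyte lists. This gave 10989 of 139354 merged regions, or 7.89% (95% Wilson interval 7.75 to 8.03). Of these, 6824 were missing from the list deposited as MyoD-null myocytes and 4165 were missing from the list deposited as wild-type myocytes. Since these peak calls chose the members, both counts are a description and carry no test.

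Chromatin accessibility was measured by ATAC-seq, in which a transposase cuts and tags open DNA. The 12 ATAC-seq samples formed 4 groups of 3, namely MyoD-null myocytes and wild-type myocytes after 24 h of myogenic differentiation, and MyoD-null and wild-type myoblasts, for which no treatment is labelled. All came from skeletal muscle of mice that either carried a MyoD knockout or were wild type, and no strain, age, sex or design of the knockout allele is labelled. Each group was deposited as 1 list called on merged reads, so no value below has an error between replicates and no group comparison could be tested.

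Myoblasts are the dividing precursors of muscle fibres, and myocytes are the cells that have left the cell cycle and begun to express muscle genes. MyoD is a basic helix-loop-helix transcription factor that binds E-box sequences and can open closed chromatin, which is why it is called a pioneer factor. Regulatory elements that serve the precursor state can close during differentiation while muscle elements open. A genotype in which an element stays listed after differentiation while the other genotype loses it is therefore of interest for how such elements are shut down.

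For myocytes, labels and peak names give opposite genotypes. Peaks in the list deposited as MyoD-null myocytes carry names that read WT-DM, and peaks in the list deposited as wild-type myocytes carry names that read MKO-DM. The names in the myoblast lists matched their labels. The deposited labels are followed throughout, and under the peak names each sub-class belongs to the opposite genotype. On chromosomes 1 to 19 the lists held 86575 peaks in MyoD-null myocytes, 109753 in wild-type myocytes, 100192 in MyoD-null myoblasts and 96420 in wild-type myoblasts. The reads at each summit and the local background were recovered from the deposited fold enrichment and p for 100% of these peaks. The genome-wide background was 6.34 reads per base in MyoD-null myocytes, 5.29 in wild-type myocytes, 8.54 in MyoD-null myoblasts and 8.18 in wild-type myoblasts. At that background the weakest listed summits had 17, 15, 21 and 20 reads in the same order of lists, and a region missing from a list was not detected at this depth, which is no evidence of closed chromatin.

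Among the 81524 regions listed in both myoblast groups, 13.5% were missing from exactly 1 myocyte list. The share missing from MyoD-null myocytes alone was 8.37% (8.18 to 8.56), and the share missing from wild-type myocytes alone was 5.11% (4.96 to 5.26). For scale, 64013 of these regions were in all 4 lists and 6522 were missing from both myocyte lists. All intervals given are for counting error alone. The order of the sub-classes depended on the lengths of the lists. With every list cut to the 86575 strongest peaks, 3269 regions were missing from MyoD-null myocytes alone and 7138 from wild-type myocytes alone.

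Whether a myoblast region was missing from a myocyte list went with its strength in myoblasts. Each region was placed by the lower of its 2 myoblast fold enrichments, where the fold is the pileup at the summit over the local background as the authors' peak caller gave it. Of the regions with a lower myoblast fold from 2.5 to below 3, 16.6% (16.01 to 17.3) were missing from MyoD-null myocytes alone and 9.02% (8.55 to 9.52) from wild-type myocytes alone. From 4 to below 4.5 the shares were 3.95% (3.56 to 4.37) and 4.05% (3.66 to 4.48), with overlapping intervals. From 5 to below 6 they were 0.644% (0.501 to 0.828) and 0.945% (0.767 to 1.16). The excess of regions missing from MyoD-null myocytes at the deposited list lengths was thus found among weak myoblast regions. In all, 20345 regions had both myoblast folds at 5 or more. Of these, 63 were missing from MyoD-null myocytes alone and 100 from wild-type myocytes alone. The first sub-class thus made up 38.7% (31.5 to 46.3) of these members, against 62.1% (61.2 to 63.0) of all members. With lists of equal length the counts of 63 and 100 became 53 and 243. There the second sub-class was also the larger among all members, at 7138 against 3269, so the excess of the first was absent.

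**Figure D1:**
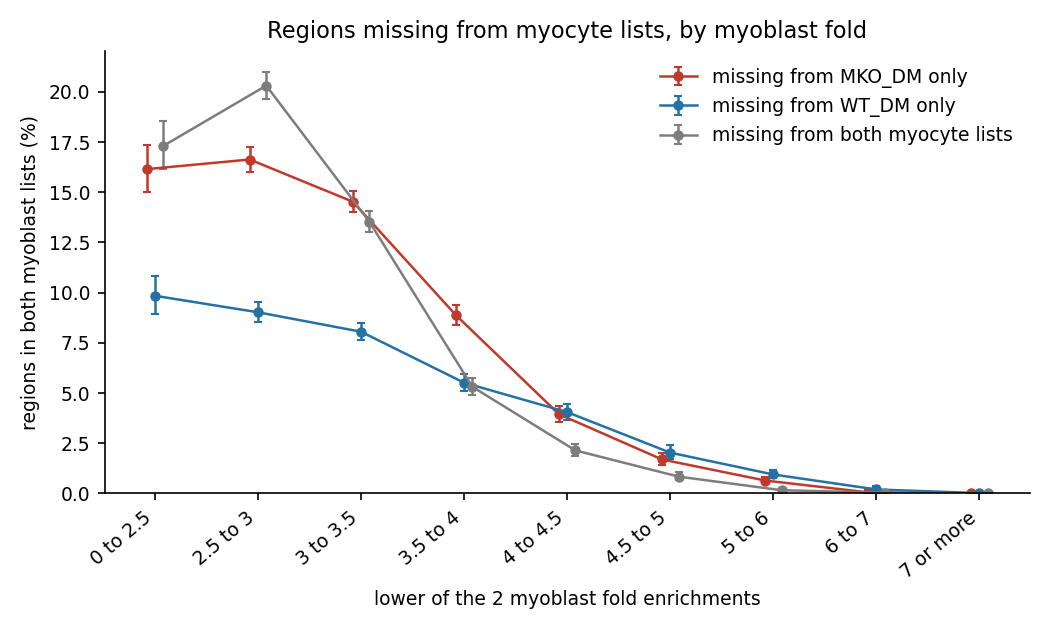
Share of regions listed in both myoblast groups (y axis, percent) that were missing from MyoD-null myocytes alone (red), from wild-type myocytes alone (blue) or from both myocyte lists (grey), by the lower of the 2 myoblast fold enrichments (x axis), with 95% Wilson intervals as bars. The red line lies above the blue line below a fold of 4, and the lines meet at 4 to 4.5, where the shares are 3.95% and 4.05%.

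The strongest member missing from MyoD-null myocytes lay at chr14:80329174-80329780 (mm9, as all coordinates here). Its summit had 21 reads over a background of 5.29 in wild-type myocytes (fold 3.5), 75 reads over 8.54 in MyoD-null myoblasts (fold 7.96) and 62 over 8.18 in wild-type myoblasts (fold 6.86). It was thus weaker in the myocytes that kept it than in either myoblast list. The same order held at chr1:12867686-12868381, with folds of 2.70 in wild-type myocytes, 6.29 in MyoD-null myoblasts and 5.99 in wild-type myoblasts. There the wild-type myocyte summit had 16 reads, 1 read above the fewest listed. At chr8:100926803-100927199 the folds were 4.14, 6.29 and 5.99, and the nearest peak of MyoD-null myocytes was 2429061 bp away.

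Some other members of this sub-class had higher unscaled folds in the wild-type myocytes than in myoblasts. Unscaled folds ran higher in that list in general. Of all regions in both myoblast lists and in wild-type myocytes, 79.3% had a wild-type myocyte fold above both myoblast folds. At chr5:53587573-53588210 the wild-type myocyte summit had 111 reads over a local background of 8.42, a fold of 11.9, against folds of 6.47 in MyoD-null and 5.94 in wild-type myoblasts. At chr7:37170256-37170915 the wild-type myocyte fold was 10.1, from 81 reads, against 7.02 in MyoD-null and 6.10 in wild-type myoblasts. Neither region held a peak of MyoD-null myocytes, and the nearest such peaks were 5746 bp and 33797 bp away. The remaining 3 of the first 8 were at chr9:119615857-119616248, chr15:77896831-77897284 and chr4:16126600-16127050. They had wild-type myocyte folds of 7.95, 6.2 and 6.05, beside MyoD-null myoblast folds of 7.44, 6.56 and 6.92. Their wild-type myoblast folds were 5.99, 5.99 and 6.21. Of these 3, only the chromosome 9 member was above both myoblast folds, and the chromosome 4 member was below both. Over the first 8 members the fold in wild-type myocytes ran from 2.70 to 11.9. Folds ran from 6.29 to 7.96 in MyoD-null myoblasts and from 5.94 to 6.86 in wild-type myoblasts. These members were chosen by their myoblast folds, which kept the myoblast ranges narrow, so the widths of the ranges cannot be compared.

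Among members missing from wild-type myocytes, the strongest was at chr11:8285812-8286502. It had 101 reads over 10.06 in MyoD-null myocytes (fold 9.22), 83 over 8.54 in MyoD-null myoblasts (fold 8.80) and 71 over 8.84 in wild-type myoblasts (fold 7.32). All 3 lists that held it were thus far above their listing limits, and the nearest wild-type myocyte peak was 4582 bp away. At chr13:35239828-35240278 the folds were 5.32 in MyoD-null myocytes, 7.96 in MyoD-null myoblasts and 6.86 in wild-type myoblasts. At chr10:20142910-20143522 they were 8.80, 6.81 and 7.37, with 65, 70 and 68 reads. Chromosome 10 held 2 more of the first 8, at 23418763 to 23419311 and at 40316952 to 40317376, with MyoD-null myocyte folds of 7.09 and 5.72. The others were at chr16:49982321-49982830, chr11:83341480-83341931 and chr1:40836688-40837276, with MyoD-null myocyte folds of 6.0, 7.67 and 7.37. Over these 8 members the MyoD-null myocyte fold ran from 5.32 to 9.22, so none of them was near the listing limit in the myocytes that kept it.

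**Figure D2:**
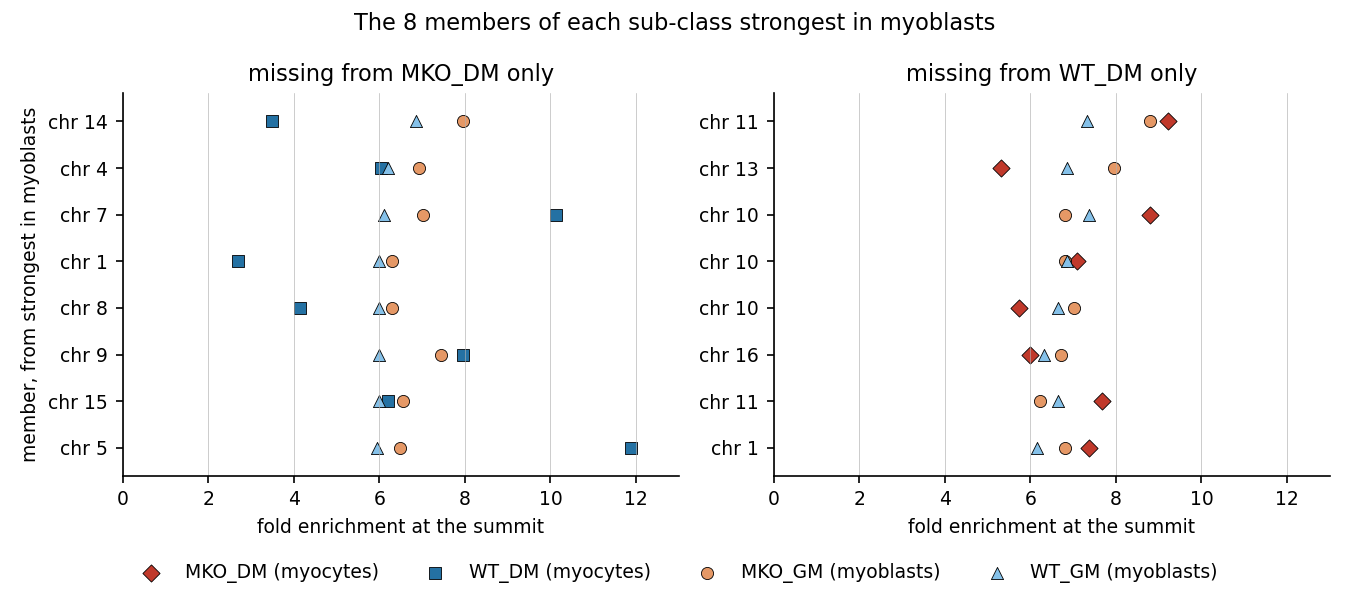
Fold enrichment at the summit (x axis) of the 8 members of each sub-class with the highest lower myoblast fold, named by chromosome (y axis), in the lists that hold them. Wild-type myocyte folds (squares, left) spread from 2.70 to 11.9, and MyoD-null myocyte folds (diamonds, right) from 5.32 to 9.22.

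The members were then followed in the myocyte list that held them. In members missing from MyoD-null myocytes, the wild-type myocyte fold had a median of 4.14 (10th to 90th percentile 2.99 to 6.66), and 30 reads at the median summit. Their median folds in myoblasts were 3.35 in MyoD-null and 3.27 in wild-type cells. In members missing from wild-type myocytes, the MyoD-null myocyte fold had a median of 3.58 (2.79 to 5.18), with 31 reads at the median summit. Their myoblast folds were 3.37 in MyoD-null and 3.33 in wild-type cells, so the myoblast medians of the sub-classes lay close together. At regions in all 4 lists the median folds were 5.04 in MyoD-null myocytes, 5.80 in wild-type myocytes, 4.40 in MyoD-null myoblasts and 4.37 in wild-type myoblasts, so folds were divided by these medians before myocytes were set against myoblasts. On that scale the median member stood at 0.713 of the regions in all 4 lists in wild-type myocytes and at 0.709 in MyoD-null myocytes.

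On the scaled folds, a minority of members were stronger in the myocytes that kept them than in myoblasts. The median ratio of the scaled myocyte fold to the mean scaled myoblast fold was 0.95 in members missing from MyoD-null myocytes and 0.929 in those missing from wild-type myocytes. At regions in all 4 lists it was 0.955 in wild-type myocytes and 0.982 in MyoD-null myocytes. A region was counted as stronger if its scaled myocyte fold was at least 1.5 times both scaled myoblast folds. This held for 523 members missing from MyoD-null myocytes, or 7.66% (7.06 to 8.32). Of all regions in both myoblast lists and in wild-type myocytes, 3.79% met the same limit. Among members missing from wild-type myocytes it held for 51, or 1.22% (0.933 to 1.61). There the share over all regions in both myoblast lists and in MyoD-null myocytes was 1.4%. The share was thus above that of all such regions in the first sub-class and not in the second. The scaling set the size of these counts. Without it, 1513 members missing from MyoD-null myocytes, or 22.2% (21.2 to 23.2), and 211 missing from wild-type myocytes, or 5.07% (4.44 to 5.77), met the limit, against 19% and 5.3% of all such regions. An unscaled fold above both myoblast folds, by any margin, was found at 73.8% (72.8 to 74.8) and 52.3% (50.8 to 53.8) of members, against 79.3% and 66.1% of all such regions. On the scaled folds, lists of equal length gave shares of 9.30% (8.35 to 10.3) and 1.22% (0.989 to 1.5). The share over all such regions was not taken at equal length, so these values have no reference. Members weaker by the same factor than both myoblast lists made up 4.25% (3.80 to 4.75) of the first sub-class and 3.07% (2.59 to 3.64) of the second, against 4.36% and 1.59% of all such regions.

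The members with the highest folds in the myocytes that kept them were chosen for that value and stand at the end of the range. At chr16:86015474-86016265 the wild-type myocyte summit had 113 reads (fold 15.0), against 31 in MyoD-null myoblasts (fold 3.35) and 28 in wild-type myoblasts (fold 3.16). At chr11:45580360-45581123 it had 93 reads (fold 14.0), against 31 (fold 3.35) and 35 (fold 3.92). At chr10:32746812-32747391 it had 86 reads (fold 13.8), against 42 (fold 4.51) and 28 (fold 3.16). Their scaled folds were 2.33 to 3.57 times those of the myoblast lists, and no peak of MyoD-null myocytes overlapped them. In the other sub-class, the strongest in MyoD-null myocytes were at chr9:78076872-78078139 and chr3:141536809-141537320. The chromosome 9 member had 80 reads in MyoD-null myocytes (fold 10.1), 46 in MyoD-null myoblasts (fold 4.93) and 40 in wild-type myoblasts (fold 4.47). The chromosome 3 member had 68 reads (fold 9.40), 42 (fold 4.51) and 42 (fold 4.68). The scaled fold was at least 1.74 times that of each myoblast list at both. Next came the chromosome 11 member from 8285812, whose scaled fold in MyoD-null myocytes was 0.914 times that in MyoD-null myoblasts and 1.09 times that in wild-type myoblasts. A fold of at least 10 in the myocytes that kept them was reached by 1.41% (1.15 to 1.71) of members missing from MyoD-null myocytes and by 0.0240% (0.00424 to 0.136) of those missing from wild-type myocytes, below the 6.33% and 2.4% of all regions in both myoblast lists and in the same myocyte list.

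**Figure D3:**
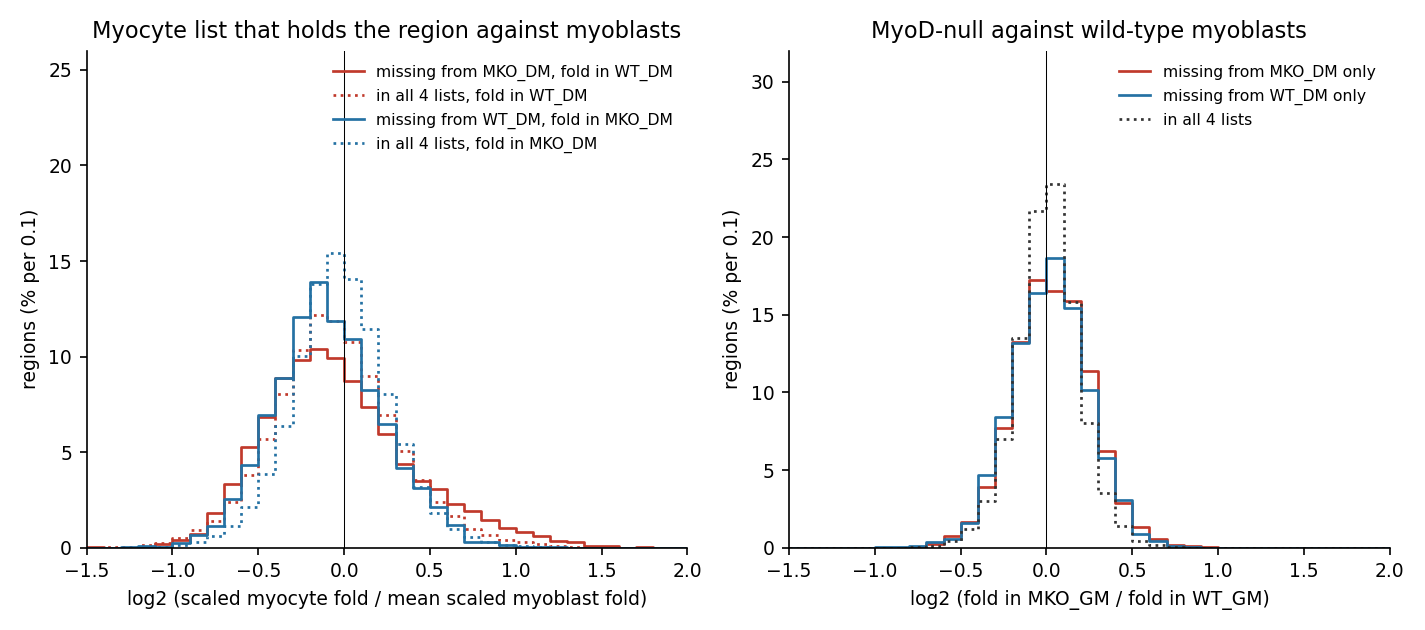
Left, distribution of the log2 ratio of the scaled fold in the myocyte list that holds a region to its mean scaled myoblast fold (x axis), as percent of regions per 0.1 (y axis), for each sub-class (solid) and for regions in all 4 lists (dotted). Right, the same for the log2 ratio of the MyoD-null to the wild-type myoblast fold; on the left the red solid line has the longer upper tail, in which 7.66% of members were at least 1.5 times both myoblast folds, and on the right the sub-classes nearly coincide.

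The sub-classes were compared in the direction of the myoblast folds between genotypes. The fold was higher in MyoD-null than in wild-type myoblasts at 55.1% (53.9 to 56.3) of members missing from MyoD-null myocytes and at 54.5% (53.03 to 56.1) of members missing from wild-type myocytes. Over all regions in both myoblast lists it was 53.4%, and at regions missing from both myocyte lists it was 55.7% (54.5 to 56.9). The intervals of the sub-classes overlapped, and the median log2 ratio was 0.03 in both. With lists of equal length they did not overlap, at 58.1% (56.4 to 59.7) and 55.04% (53.9 to 56.2). The share over all regions in both myoblast lists was not taken at equal length, so these 2 values have no reference. The myoblast folds differed by 1.5 times or more, with the MyoD-null one higher, at 0.967% (0.761 to 1.23) of the first sub-class and 0.744% (0.525 to 1.05) of the second. The share over all regions in both myoblast lists was 0.406%. In the opposite direction the shares were 0.322% (0.213 to 0.488) and 0.624% (0.426 to 0.913), against 0.24% over all regions in both myoblast lists. Members had fewer reads at the summit, with medians in MyoD-null myoblasts of 36 in the first and 39 in the second sub-class against 59 at regions in all 4 lists, and the part of read number in these shares was not tested.

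Single members with unequal myoblast folds were found in both sub-classes. At chr11:31817736-31818189, missing from MyoD-null myocytes, 61 reads in MyoD-null myoblasts stood against 30 in wild-type myoblasts, with folds of 6.5 and 3.38, and the wild-type myocyte fold was 7.95. At chr12:30033479-30034462, of the same sub-class, the folds were 2.38 in MyoD-null and 4.19 in wild-type myoblasts and 8.49 in wild-type myocytes. That region was therefore weakest in MyoD-null myoblasts, missing from MyoD-null myocytes, and strongest in wild-type myocytes, by the deposited labels. Among members missing from wild-type myocytes, chr9:99111427-99112079 had folds of 5.60 in MyoD-null and 3.16 in wild-type myoblasts and 4.5 in MyoD-null myocytes. The opposite was seen at chr15:77353722-77354064, with 2.62 in MyoD-null and 4.90 in wild-type myoblasts and 3.82 in MyoD-null myocytes. The other members chosen for a high or low ratio had MyoD-null to wild-type myoblast ratios of 1.67 to 1.88 and of 0.561 to 0.609. They lay at chr14:31735108-31735807, chr12:53143899-53144271, chr5:142340832-142342080 and chr19:28847332-28847649 in the first sub-class. In the second they lay at chr10:27704893-27705563, chr9:35470774-35471189, chr3:108261579-108262145 and chr13:109270607-109270967.

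Members were narrow regions with 1 summit. Their median width was 450 bp (10th to 90th percentile 318 to 748) where MyoD-null myocytes missed them and 424 bp (312 to 657) where wild-type myocytes did, against 736 bp for regions in all 4 lists and 349 bp for regions missing from both myocyte lists. Each list that held the region gave exactly 1 peak at 98.3% (98.01 to 98.6) of the first sub-class and 98.2% (97.7 to 98.5) of the second. The share was 91.1% (90.9 to 91.3) at regions in all 4 lists and 99.4% (99.2 to 99.6) at regions missing from both myocyte lists. This share also depends on how many lists hold a region. The width of a region spans the peaks of every list that holds it, so regions of 3 and of 4 lists are not measured alike. The rule, which merges overlapping peaks, itself keeps summits of a narrow region close. The wild-type myocyte summit lay at a median of 30 bp from the nearer myoblast summit in the first sub-class, and the MyoD-null myocyte summit at 29 bp in the second, against 22 and 23 bp at regions in all 4 lists. The myoblast summits lay at medians of 48 and 44 bp from each other in the sub-classes.

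Across members the folds of different lists went together less closely than at regions in all 4 lists. Between MyoD-null and wild-type myoblasts, Pearson's r of the log2 folds was 0.67 over the 6824 members missing from MyoD-null myocytes, 0.74 over the 4165 missing from wild-type myocytes and 0.92 over the 64013 regions in all 4 lists. Between the myocytes that kept the region and MyoD-null myoblasts, r was 0.35 in the first sub-class and 0.48 in the second, against 0.73 and 0.81 for the same myocyte lists at regions in all 4 lists. Points of 1 list share their sequencing depth, and the members span a narrower range of folds than the regions in all 4 lists, so the values are a description.

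The myoblast folds of members were set against the lowest fold found in the list that missed them. In MyoD-null myocytes the lowest fold listed at the genome-wide background was 2.45, and both myoblast folds were above it at 92.2% (91.6 to 92.8) of the members missing there. In wild-type myocytes the lowest was 2.55, and 88.5% (87.4 to 89.4) of the members missing there had both myoblast folds above it. The rule asked for a peak in both myoblast lists, whose own lowest folds at that background were 2.31 and 2.29. High shares were thus largely set by the rule. Of all 81524 regions in both myoblast lists, 3901 had a lower myoblast fold below 2.5. Folds were not scaled here, and why members were not listed was not tested. Myoblast summits of members missing from MyoD-null myocytes lay on the genome-wide background at 45.0% (43.9 to 46.2) in MyoD-null and 48.8% (47.6 to 50.01) in wild-type myoblasts. For members missing from wild-type myocytes the shares were 36.4% (34.97 to 37.9) and 38.5% (37.0 to 39.95), so a raised local background was more frequent at the second sub-class. Where the local background of the missing list was raised, the fold needed was not known.

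Some members lay near a peak of the list that missed them. Of the members missing from MyoD-null myocytes, 9.89% (9.21 to 10.6) had a MyoD-null myocyte peak within 1000 bp, and the median gap was 7222 bp. Of those missing from wild-type myocytes, 17.2% (16.1 to 18.4) had a wild-type myocyte peak within 1000 bp, and the median gap was 3881 bp. The wild-type myocyte list is also the longer one, and no such share was taken over other regions, so unusual nearness was not shown. Members just inside the rule had gaps of 13 bp at chr15:80024380-80024864, 34 bp at chr15:100949322-100949699 and 44 bp at chr8:108822600-108823022 to a MyoD-null myocyte peak. In the other sub-class, a wild-type myocyte peak adjoined chr5:150800750-150801238 with a gap of 0 bp, and gaps of 28 and 38 bp were found at chr17:63723012-63723593 and chr15:58872448-58872905. Just outside the rule, a MyoD-null myocyte peak overlapped by 4 bp at chr5:65429565-65430152, by 15 bp at chr13:95151614-95152594 and by 18 bp at chr11:119383653-119384620. A wild-type myocyte peak overlapped by 19, 28 and 62 bp at chr1:184328276-184329157, chr7:123277973-123278956 and chr2:181154991-181155889. Gaps within 100 bp were rare, at 0.220% (0.133 to 0.362) of the first sub-class and 0.192% (0.0974 to 0.379) of the second.

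**Figure D4:**
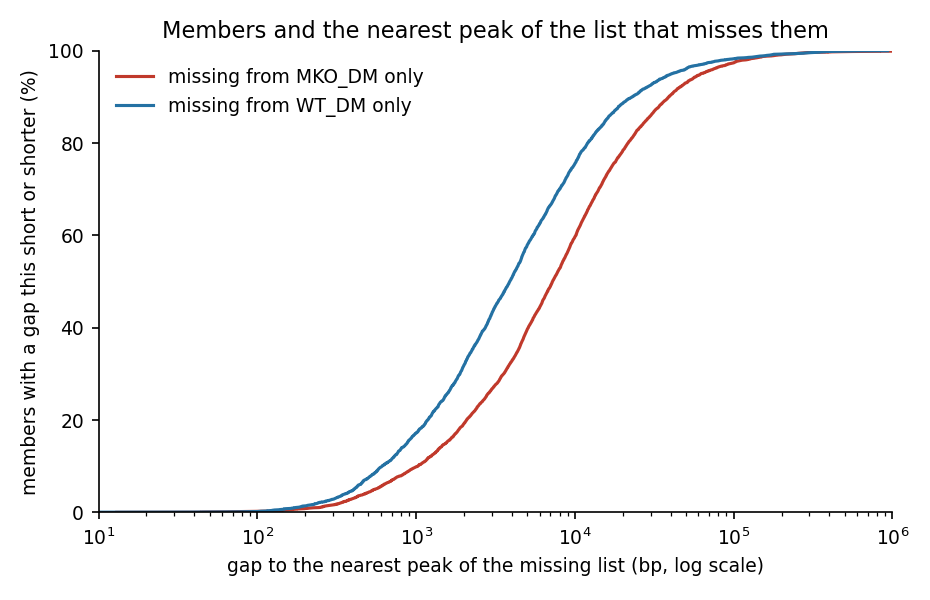
Cumulative share of members (y axis, percent) by the gap to the nearest peak of the myocyte list that misses them (x axis, bp, log scale), for members missing from MyoD-null myocytes (red) and from wild-type myocytes (blue). The medians are 7222 and 3881 bp, and gaps under 100 bp are nearly absent in both sub-classes.

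The nearest other member was of the same sub-class slightly more often than that sub-class's share of all members. This was so for 64.5% (63.3 to 65.6) of members missing from MyoD-null myocytes, which made up 62.1% (61.2 to 63.0) of all members. For members missing from wild-type myocytes it was 42.8% (41.3 to 44.3), against their 37.9% (37.0 to 38.8) of all members. Within 50 kb, 39.0% (37.8 to 40.1) of the first sub-class and 28.1% (26.7 to 29.5) of the second had another member of their own sub-class, which is also the order of the sizes of the sub-classes. It turned round with lists of equal length (21.9% and 41.7%). A region of all 4 lists lay within 5 kb of 31.8% (30.7 to 32.9) of members missing from MyoD-null myocytes and of 41.7% (40.2 to 43.2) of those missing from wild-type myocytes, against 41.8% (41.4 to 42.2) of the regions in all 4 lists themselves. The members missing from MyoD-null myocytes thus lay farther from regions of all 4 lists, at a median of 9236 bp against 6568 bp for the second sub-class. Regions missing from both myocyte lists lay farther still, at a median of 11042.5 bp, with 28.3% (27.2 to 29.4) within 5 kb. These distances were not taken with lists of equal length.

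The surroundings of members were described by other regions that held peaks of only 1 myocyte list. Within 50 kb of members missing from MyoD-null myocytes, 80.6% of the non-member regions with 1 myocyte list held wild-type myocyte peaks. Around members missing from wild-type myocytes it was 77.2%. A region near several members was counted for each of them. Counted in the same way, it was 78.4% around regions in all 4 lists and 78.6% around regions missing from both myocyte lists. Over the genome, with each such region counted a single time, it was 79.9%. A non-member region with MyoD-null myocytes as its only myocyte list lay within 50 kb of 34.1% (32.9 to 35.2) of the first sub-class and 40.8% (39.4 to 42.3) of the second, against 42.2% (41.8 to 42.6) of regions in all 4 lists. With wild-type myocytes as the only myocyte list, the shares were 76.8% (75.8 to 77.8) and 76.9% (75.5 to 78.1), against 82.01% (81.7 to 82.3).

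A few windows of 100 kb held several members of 1 sub-class. The window on chromosome 5 from 74000001 to 74100000 held 6 members missing from MyoD-null myocytes among 10 merged regions. Its peaks numbered 4 in MyoD-null myocytes, 9 in wild-type myocytes, 9 in MyoD-null myoblasts and 10 in wild-type myoblasts. The 6 members lay between 74024366 and 74092993, with wild-type myocyte folds of 3.96 to 6.05, MyoD-null myoblast folds of 3.14 to 3.77 and wild-type myoblast folds of 2.94 to 4.66. The smallest gap from any of the 6 to a MyoD-null myocyte peak was 9053 bp. On chromosome 15 from 93500001 to 93600000, 6 of 15 merged regions were such members, with 3 MyoD-null and 12 wild-type myocyte peaks and with 11 MyoD-null and 10 wild-type myoblast peaks. The strongest of these, at 93512063 to 93512481, had a fold of 8.59 in wild-type myocytes, 4.68 in MyoD-null myoblasts and 3.92 in wild-type myoblasts. On chromosome 3 from 68500001 to 68600000 there were 5, with wild-type myocyte folds of 4.0 to 5.6, in 1 of 2 windows with 5 members.

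The windows richest in members missing from wild-type myocytes held fewer of them. There were 6 windows with 4 such members, and the 2 named here had the highest summed myoblast folds. On chromosome 17 from 71400001 to 71500000, 4 of 13 merged regions were missing from wild-type myocytes alone, with 10 MyoD-null and 7 wild-type myocyte peaks and with 10 peaks in each myoblast list. The strongest in MyoD-null myocytes, at 71473432 to 71474057, had folds of 5.14 there, 4.89 in MyoD-null myoblasts and 4.68 in wild-type myoblasts. On chromosome 10 from 94000001 to 94100000 there were also 4, among 20 merged regions with 13 peaks in every list. The window at the start of chromosome 11, from 3000001 to 3100000, held 5 such members and 1 of the other sub-class among 33 merged regions. It was unlike the others in its background. Local backgrounds at 4 of its 5 members ran from 31.4 to 64.3 reads in MyoD-null myocytes, far above the genome-wide 6.34, and their folds there were 1.56 to 2.66. Whether repeated sequence plays a part there was not tested.

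Members occurred on every chromosome from 1 to 19. The share of regions in both myoblast lists that were missing from MyoD-null myocytes alone was lowest on chromosome 11, at 7.30%, and highest on chromosome 14, at 9.32%. The share missing from wild-type myocytes alone was lowest on chromosome 17, at 4.65%, and highest on chromosome 16, at 6.10%. On all 19 chromosomes more regions were missing from MyoD-null than from wild-type myocytes, at the deposited list lengths.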

How the data were processed

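The 4 ATAC-seq peak lists were used as deposited, 1 for each group of 3 samples, and the 6 RNA-seq samples of C2C12 cells were not used here. Build mm9, MACS2 and deepTools are named in the submitters' processing notes, with no version. Per the peak names, MACS2 was run on the merged replicates of a group after a MAPQ30 filter. Aligner, settings and any transposase shift: not given in the sources used here. The deposited fold enrichment is a ratio of the summit pileup to the local background. The deposited −log10 p and −log10 q belong to each peak, and the deposited score, a rounded form of the latter, was not used. Folds were set side by side between lists after division by each list's median at regions in all 4 lists where stated.

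Peaks on chromosomes 1 to 19 were merged at an overlap of 1 bp, and a region's fold in a list is that of its strongest peak there. The summit pileup is the whole number that gives both the deposited fold, as (pileup + 1) / (background + 1), and the deposited −log10 p, as a Poisson tail, to within 0.01. Read totals per sample are unknown. Gaps run from edge to edge. Shares have 95% Wilson intervals. No test was made, since each group had 1 list. Merging, gaps and pileups were tested on 20000 simulated sites, where each of 6 quantities came back to within 1 percent. Scripts ran under Python 3.11.15 with pandas 2.3.3, numpy 2.4.6, statsmodels 0.14.6, scipy 1.17.1 and matplotlib 3.10.9.

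The members, the comparisons and the rule for named regions were chosen with earlier results of these data known. Named in each sub-class were the 8 members with the highest lower myoblast fold, 3 each with the highest fold in the myocytes that kept them and the highest and lowest MyoD-null to wild-type myoblast ratio, the 3 windows of 100 kb with the most members (ties by the summed lower myoblast fold), and 3 regions each just inside and just outside the rule. Gene annotation and sequence of mm9 were not used here, so genes, promoters, motifs and the knocked-out locus were not analysed. Regions prone to artefact signal were not removed.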

Additional observations from a re-analysis of the deposited data

Results flagged for a closer look

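Some members had no listed peak in 1 genotype of myocytes and a stronger one in the other. This was so at 523 members missing from MyoD-null myocytes, whose scaled wild-type myocyte fold was at least 1.5 times both scaled myoblast folds. They made up 7.66% of that sub-class, against 3.79% of all regions in both myoblast lists and in wild-type myocytes. The missing peak was the rule that chose these regions and gives no value for MyoD-null myocytes, so a fall there was not measured. The mirrored pattern, with no wild-type myocyte peak and a stronger MyoD-null myocyte peak, was found at 51 members missing from wild-type myocytes. That was 1.22% of the sub-class, against 1.4% of all regions in both myoblast lists and in MyoD-null myocytes. The mirrored pattern was thus not more frequent among members. With 1 list per group the difference between genotypes was not tested, and by the peak names the genotypes are exchanged.

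Chromosomes X and Y lie outside the rule and held regions of the same pattern. There 89 regions in both myoblast lists were missing from MyoD-null myocytes alone and 49 from wild-type myocytes alone. On X these made up 6.38% (5.20 to 7.82) and 3.64% (2.76 to 4.78) of the 1347 regions in both myoblast lists, and on Y 3 and 0 of 18 regions, where 0 of 18 allows a share of up to 17.6% (upper Wilson bound).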

How the results depend on the processing

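Results under the alternatives are given as values for members missing from MyoD-null myocytes and then for those missing from wild-type myocytes. The share of members within 50 kb of another of their sub-class is called the neighbour share. Lists of equal length gave 3269 and 7138 members, neighbour shares of 21.9% and 41.7%, median widths of 463 and 457 bp, a higher MyoD-null myoblast fold at 58.1% and 55.04%, and 304 and 87 members stronger in the myocytes that kept them; 243 members missing from wild-type myocytes then had both myoblast folds at 5 or more. A fold of 5 or more in all lists gave 869 and 643 members, widths of 613 and 629 bp, neighbour shares of 4.95% and 7.47%, and a higher MyoD-null myoblast fold at 56.7% of members missing from MyoD-null myocytes. With q of 1e-05 or lower the higher MyoD-null myoblast fold held for 52.5% and 52.8%, with widths of 463 and 444 bp and neighbour shares of 36.9% and 25.7%. Taking genotypes from the peak names exchanged the sub-classes, with 4165 and 6824 members, widths of 424 and 450 bp and neighbour shares of 28.1% and 39.0%. Windows of 250 bp around summits gave widths of 330 and 329 bp and neighbour shares of 42.0% and 37.8%. The neighbour share was 35.9% and 24.1% without members that had a peak of the missing list within 1000 bp, 36.6% and 24.5% with both myoblast folds above the listing limit of the missing list, and 18.1% and 13.9% within 20 kb. Without scaling, 1513 and 211 members were stronger in the myocytes that kept them, and at a factor of 2 it was 108 and 2. The other 57 values stayed within 1.5 times the count or within the interval of the value reported. The causes were not tested. The alternatives for stronger members and for both myoblast folds at 5 or more were added after the data were seen. No paired analysis was possible because each group was deposited as 1 list over merged replicates, and for the same reason no replicate could be left out. Depth sets the listing limit, and the list of wild-type myocytes had the lowest background and the most peaks.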
